A study of Homo sapiens with 39 samples.

Results

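The comparison set NEO2734 against OTX015 in DOHH2 and Toledo, 2 human lines grown from B cell lymphomas, from RNA sequenced after 6 h of treatment. Its members are 12 of the 39 libraries of the series: those labelled with either compound in either line, 3 per compound and line, chosen by their labels alone. DOHH2 was established from a transformed follicular lymphoma and Toledo from a diffuse large B cell lymphoma, and both are counted among lines of the germinal centre type. OTX015 (birabresib) is known to block the bromodomains of the BET proteins, and NEO2734 to block these together with the bromodomain of CBP/p300. DMSO, the vehicle, was given to 3 more libraries of each line. These served for the vehicle level, except Toledo DMSO replicate 2, which holds transcripts of OCILy10, another line of the series. The same pair of compounds in OCILy10 and TMD8, lines of the activated B cell type, served to see where the comparison differs. No dose is labelled, so it is not known whether the doses matched, nor is it labelled whether a group's 3 libraries are separate cultures. The p-values therefore measure the spread between these libraries, which may be technical.

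BET proteins, BRD2 and BRD3 among them, bind acetylated lysines on histones and bring the elongation factor P-TEFb to promoters and enhancers. CREBBP and EP300, together called CBP/p300, are acetyltransferases that mark enhancers and carry a bromodomain of their own. In B cell lymphoma, BET inhibitors are known for lowering MYC and B cell lineage genes and for raising HEXIM1, an inhibitor of P-TEFb, and histone genes.

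The 17 libraries that entered the fit of both lines held 1000281 to 10241477 counts each, with counts for 13017 to 14184 genes. Each group had 1 deep library (over 5000000 counts) and otherwise shallow ones (1000281 to 2427565 counts), so depth within each line was a term of the fit. CD79A and PAX5, pan-B cell genes, were read in each of the 12 libraries, and the monocyte genes LYZ and CSF1R and the T cell genes CD2 and CD5 were at 0 to 1.76 CPM (scaled counts-per-million values). The 6 markers of the germinal centre type were divided over the lines. GCSAM and MME were higher in both lines than in OCILy10 and TMD8 with DMSO (GCSAM at 140.0 to 194 CPM against 0.46 to 4.32 CPM). MYBL1 was higher than in those lines in Toledo alone (9.15 to 16 CPM). BCL6 was at 0 in DOHH2 with DMSO and at 0 to 3.75 CPM in Toledo, against 55.7 to 74.6 CPM in OCILy10 and 13.9 to 33.3 CPM in TMD8. LMO2 (at most 0.597 CPM in DOHH2 and 0.15 CPM in Toledo) and SERPINA9 (at most 12.5 CPM in DOHH2 and 0 in Toledo) were both highest in TMD8, at 25.2 to 34.5 and 17.7 to 27.4 CPM. Of the activated-type markers, PIM1, CD44 and BATF were lower in DOHH2 and Toledo than in OCILy10 and TMD8, while IRF4 was at 716 to 790.0 CPM in DOHH2, within the range of those lines. CCND2 was at 173 to 542 CPM in DOHH2, overlapping OCILy10 (453 to 1040 CPM) and TMD8 (493 to 1220 CPM), and at 6 to 7.8 CPM in Toledo. The lines are therefore called by their names. DOHH2 NEO2734 replicate 3 held genes private to OCILy10 at 12.28% of their OCILy10 level, a median over 8 genes, while replicates 1 and 2 had them at 0, so the counts it moves most are also given without it.

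SASH3 apart, no gene separated the compounds past the test. With edgeR's quasi-likelihood test and Benjamini-Hochberg adjustment over 11410 genes, 1 gene, SASH3, was called between NEO2734 and OTX015 on average over the lines (adjusted p below 0.05), which is 0.00876% of the genes tested, and it was lower with NEO2734. At an unadjusted p under 0.05 there were 404 higher genes (3.54%) and 470 lower ones (4.12%), together 7.66%. Within DOHH2 and within Toledo 0 genes were called, with 562 (4.93%) and 631 (5.53%) at an unadjusted p under 0.05. DESeq2 with the same design called 36 genes for the mean, 2 higher and 34 lower, and all 36 had an unadjusted p under 0.05 with edgeR. Without DOHH2 NEO2734 replicate 3, SASH3 was again the only gene called, of 11574 tested (0.00864%), with 1002 genes (8.66%) at an unadjusted p under 0.05. A difference of 2-fold or more was outside the 95% interval for 9403 genes (82.4%). These intervals, like the p-values, rest on the spread between these libraries, which may be technical. The median standard error of the log2 difference was 0.18.

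SASH3, a signalling adaptor of lymphocytes (ENSG00000122122.9, GRCh38 chromosome X, 129779979 to 129795201, plus strand), stood in DOHH2 at 55.5, 75.5 and 78.6 CPM with NEO2734, against 85.5, 133 and 123 CPM with OTX015 and 158, 259.8 and 228 CPM with DMSO. In Toledo it stood at 47.5, 62.9 and 71.4 CPM with NEO2734, against 146, 108 and 108 CPM with OTX015 and 239 and 272 CPM with DMSO. All NEO2734 libraries lay below all OTX015 libraries in both lines, as for 0.202% of all genes, and all OTX015 libraries lay below the DMSO ones. The log2 difference between NEO2734 and OTX015 was -0.84 ± 0.10 (SE; 95% interval -1.06 to -0.62; adjusted p = 0.00547), a level 0.558 times that with OTX015 (0.479 to 0.65). It was -0.69 ± 0.15 in DOHH2 and -0.99 ± 0.15 in Toledo, and -0.86 on average without DOHH2 NEO2734 replicate 3 (adjusted p = 0.0297). The call was lost with the depth term left out (adjusted p = 0.751), with the replicate number as a block in its place (0.75), in the shallow (0.503) or deep libraries alone (0.655), and without Toledo OTX015 replicate 1 (0.0563). In bulk RNA, a lower level in every cell and fewer cells that express a gene cannot be told apart. The log2 value lay between -0.88 and -0.77 when any 1 of the 12 libraries was left out.

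**Figure D1:**
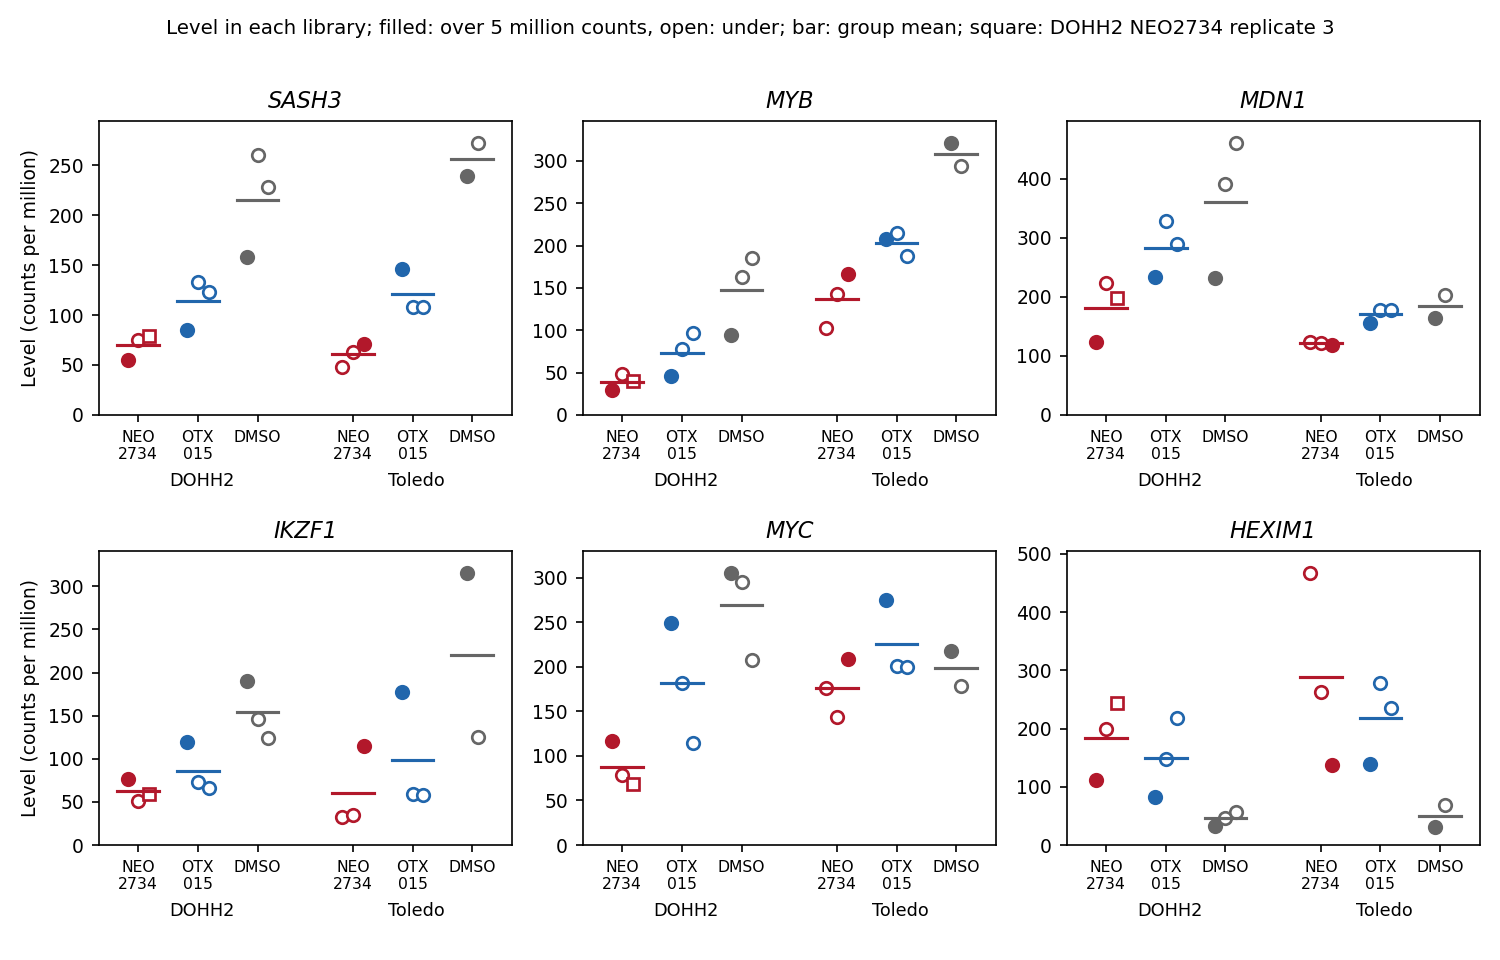
Level of 6 genes in each library (y axis, CPM, from 0) by compound within DOHH2 and Toledo, with the group mean as a bar; filled points are libraries over 5000000 counts, open points those under, and the square is DOHH2 NEO2734 replicate 3. SASH3 is lower in every NEO2734 library than in any OTX015 library of its line, while IKZF1 and MYC separate within libraries of like depth and HEXIM1 overlaps in both lines.

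Promoter sequences are shown for the called gene and for MDN1, the third by p, since both hold the letters CACGTG, the E-box that MYC is known to bind. The windows run from 250 bases before to 50 bases after the RefSeq start of each gene on GRCh38.p14, read 5′ to 3′ on the strand of the gene, with CACGTG in capitals. SASH3 is at chrX:129779699-129779998 on the plus strand and MDN1 at chr6:89819745-89820044 on the minus strand.
SASH3: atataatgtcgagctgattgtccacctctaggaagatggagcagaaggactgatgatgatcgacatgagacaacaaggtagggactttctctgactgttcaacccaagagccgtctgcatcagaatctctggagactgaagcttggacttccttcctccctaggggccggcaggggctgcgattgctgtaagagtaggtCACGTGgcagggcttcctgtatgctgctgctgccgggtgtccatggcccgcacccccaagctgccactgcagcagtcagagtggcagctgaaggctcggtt
MDN1: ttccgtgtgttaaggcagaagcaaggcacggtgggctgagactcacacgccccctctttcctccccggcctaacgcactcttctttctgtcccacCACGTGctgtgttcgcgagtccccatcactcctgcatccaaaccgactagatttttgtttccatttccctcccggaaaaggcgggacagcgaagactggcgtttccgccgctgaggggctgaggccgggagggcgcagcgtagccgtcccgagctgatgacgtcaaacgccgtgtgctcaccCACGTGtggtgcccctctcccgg
CACGTG, which reads the same on both strands, was in 10.5% of the 8780 windows of tested genes that matched a RefSeq promoter. It was in 20.6% of the 354 windows of genes lower with NEO2734 at an unadjusted p under 0.05, and in 6.99% of the 329 windows of higher ones. Without DOHH2 NEO2734 replicate 3 the shares were 19.1% of 444 lower and 7.94% of 315 higher genes. The motif first planned, the interferon-stimulated response element, is not reported here, and CACGTG was looked up after these values were seen. In the windows of MYB and IKZF1 these letters were not found. A match describes the window and is not a binding site.

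The genes next in rank were lower with NEO2734 without passing the test. Of the 20 genes with the lowest p and at least 5 CPM in a compound group, 20 were lower with NEO2734, and the first higher gene stood at rank 27. In all 20, the deep NEO2734 library was below the deep OTX015 library and the shallow ones below the shallow ones, in both lines, which held for 1.26% of all genes. This ordering was looked up after the fit and rests on the same libraries. On average over the lines, both compounds stood below DMSO for 19 of the 20, with BCL2 the exception. Within a single line this did not hold throughout. MYC with OTX015 was at 0.24 ± 0.20 against DMSO in Toledo, and BLK with OTX015 was near 0 in DOHH2 (-0.04 ± 0.18). DESeq2 called each of the 20. With edgeR, SASH3, MYB, MDN1 and IKZF1 were the 4 genes called with upper quartile scaling, and SASH3, MYB, MDN1 and IKZF3 the 4 called with library totals.

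MYB, a transcription factor of B cell progenitors and germinal centre cells, had 29.1, 48.8 and 40.2 CPM with NEO2734 in DOHH2, against 46.3, 77.9 and 96.3 CPM with OTX015, and 103, 142 and 167 CPM with NEO2734 in Toledo, against 207, 215 and 188 CPM with OTX015. Its groups did not overlap in Toledo, where the same order held for 1.83% of all genes, and overlapped in DOHH2, where the deep OTX015 library (46.3 CPM) lay between the shallow NEO2734 ones. The log2 difference was -0.71 ± 0.11 (adjusted p = 0.0509). IKZF1, which encodes Ikaros, a lymphoid zinc finger factor, had 76, 50.7 and 59.7 CPM with NEO2734 in DOHH2, against 119, 72.7 and 65.9 CPM with OTX015, and 32.5, 34.8 and 115 CPM with NEO2734 in Toledo, against 177, 59.2 and 58 CPM with OTX015. The deep libraries read it higher than the shallow ones in both compounds, so the groups overlap when depth is ignored. The difference was -0.59 ± 0.10 (adjusted p = 0.0549). IKZF3, which encodes its relative Aiolos, had -0.44 ± 0.09 (adjusted p = 0.0942), and PAX5, the factor that keeps B cell identity, had -0.48 ± 0.13 (adjusted p = 0.327).

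MYC had 117, 78.1 and 68.8 CPM with NEO2734 in DOHH2, against 249, 182 and 114 CPM with OTX015 and 306, 295 and 208 CPM with DMSO. In Toledo it had 177, 144 and 209 CPM with NEO2734, against 275, 201 and 199 CPM with OTX015 and 218 and 179 CPM with DMSO. In each line the deep and the shallow NEO2734 libraries were below the OTX015 libraries of like depth. The log2 difference was -0.69 ± 0.13 (adjusted p = 0.0942), with -1.04 ± 0.18 in DOHH2 and -0.35 ± 0.17 in Toledo. The difference between those values, -0.70 ± 0.25, had an unadjusted p of 0.0133 and did not pass. Against DMSO, MYC stood in DOHH2 at -1.64 ± 0.18 with NEO2734 and at -0.60 ± 0.18 with OTX015. In Toledo it stood at -0.10 ± 0.20 with NEO2734 and at 0.24 ± 0.20 with OTX015, both within 2 SE of 0. These values share the DMSO libraries of their line, and no test of them is given. TFAP4, a factor known as a direct target of MYC, had -1.04 ± 0.22 (adjusted p = 0.144).

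Genes of ribosome synthesis were among those of low p. MDN1, an ATPase that strips factors off the large ribosomal subunit during its assembly, had 123, 224 and 197 CPM with NEO2734 in DOHH2, against 233, 328 and 289 CPM with OTX015, and 123, 122 and 119 CPM with NEO2734 in Toledo, against 156, 178 and 178 CPM with OTX015. The groups did not overlap in either line, and the difference was -0.58 ± 0.09 (adjusted p = 0.0509). UBTF, which opens ribosomal RNA genes to RNA polymerase I, had -0.50 ± 0.10 (adjusted p = 0.0942), and POLR1A, the largest subunit of that polymerase, had -0.41 ± 0.09 (adjusted p = 0.153). DHX33, a helicase of ribosomal RNA synthesis, had -0.51 ± 0.10, and LARP1, which binds the mRNAs of ribosomal proteins, had -0.53 ± 0.10 (both adjusted p = 0.0942). A list of MYC targets and ribosome biogenesis, written with earlier results of these data known, had 61 tested genes. Of these, 22 were lower at an unadjusted p under 0.05 (36.1%, beside 4.12% of all genes) and 2 higher (3.28%, beside 3.54%). Values were below 0 for 54 of the 61, beside 47.4% of all genes. The median was -0.22, with -0.31 in DOHH2 and -0.11 in Toledo, beside 0.01 over all genes tested. Without DOHH2 NEO2734 replicate 3 the counts were 22 and 3. No member passed the adjusted test.

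BCL2, the anti-apoptotic gene that the translocation of follicular lymphoma drives, had 128, 489.8 and 407 CPM with NEO2734 in DOHH2, against 179, 631 and 625 CPM with OTX015 and 157, 595 and 556 CPM with DMSO. In Toledo it had 412, 528 and 522 CPM with NEO2734, against 578, 838 and 721 CPM with OTX015 and 555 and 714 CPM with DMSO. The difference between the compounds was -0.51 ± 0.11 (adjusted p = 0.144), with no overlap in Toledo and overlap across depths in DOHH2. Against DMSO, BCL2 stood at -0.37 ± 0.11 with NEO2734 and at 0.14 ± 0.11 with OTX015. Other genes among the 20 were CYBB, the catalytic subunit of the phagocyte oxidase (-0.69 ± 0.13), BLK, a kinase of the B cell receptor pathway (-0.65 ± 0.14), ITGA4, an integrin subunit (-0.67 ± 0.14), ARHGAP30, a GTPase-activating protein (-0.52 ± 0.10), and UCK2, a uridine kinase (-0.50 ± 0.11). ANKLE1 (-0.92 ± 0.18), MLLT6 (-0.54 ± 0.11), BEND3, a transcriptional repressor (-0.86 ± 0.18), and PPARGC1B, a coactivator of mitochondrial genes (-0.77 ± 0.17), completed them. Their adjusted p-values ran between 0.0942 and 0.144.

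**Figure D2:**
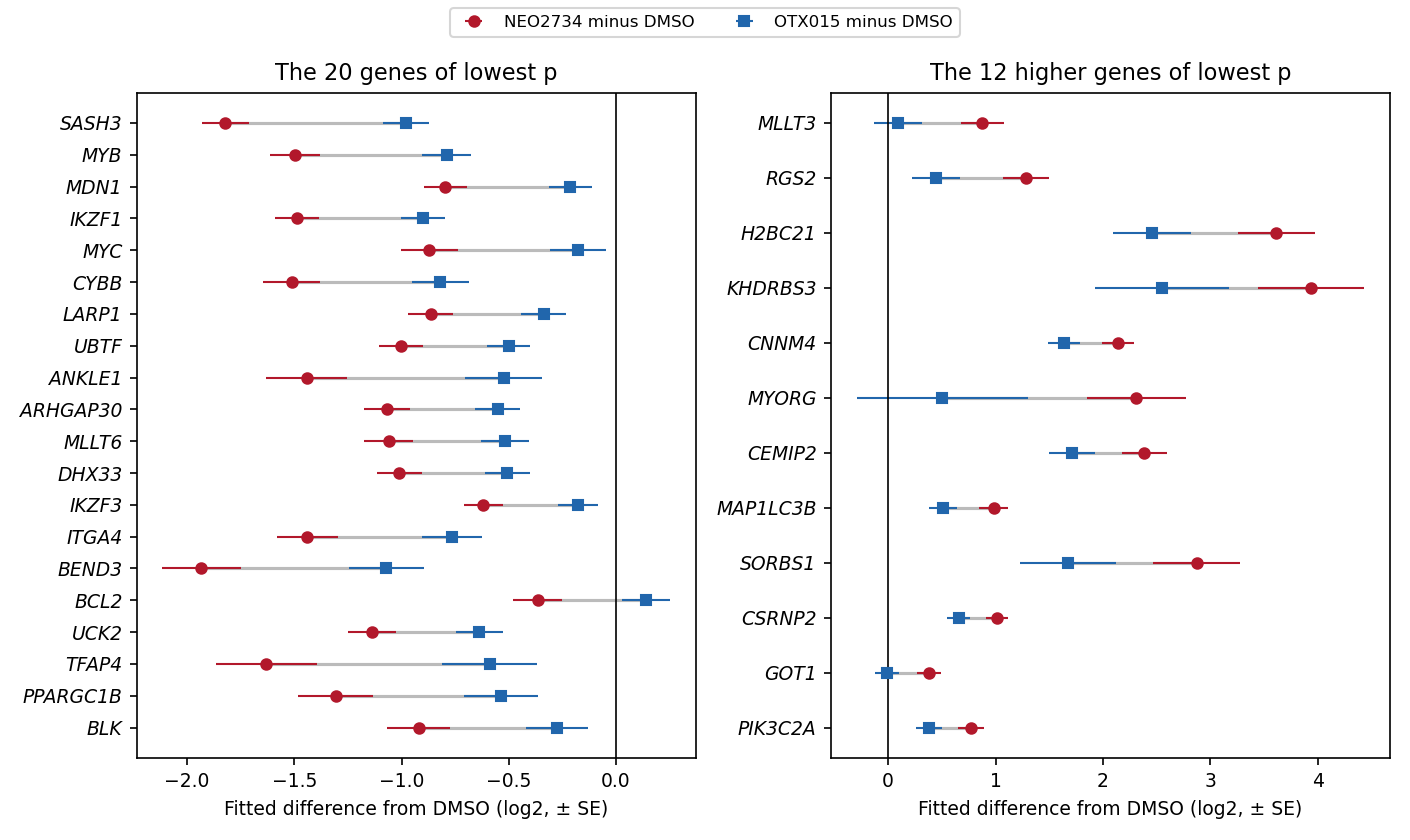
Fitted log2 difference from DMSO (x axis, mean of both lines, ± SE) for NEO2734 (circles) and OTX015 (squares), for the 20 genes of lowest p between the compounds and the 12 of lowest p among higher genes. On the left NEO2734 is further below DMSO than OTX015 in all 20 and BCL2 alone has OTX015 above DMSO. On the right NEO2734 is the higher of the 2 in all 12, which were chosen as higher. The order of the compounds restates the difference that ranked the genes, and both compounds share the DMSO libraries.

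No gene passed in the upward direction. H2BC21, a replication-independent histone H2B gene, had 31.5, 16.3 and 16.6 CPM with NEO2734 in DOHH2, against 14.5, 4.62 and 5.93 CPM with OTX015 and 2.15, 0 and 0.663 CPM with DMSO. In Toledo it had 32, 16.6 and 50.6 CPM with NEO2734, against 24.4, 16.3 and 11.8 CPM with OTX015 and 8.06 and 0 CPM with DMSO. The groups did not overlap in DOHH2, where the same order held for 2.25% of all genes, and overlapped in Toledo, and the difference was 1.16 ± 0.27 (adjusted p = 0.185). RGS2, a brake on G protein signalling, had 0.84 ± 0.19 (adjusted p = 0.185). H2BC21 and RGS2 were the 2 higher genes that DESeq2 called (adjusted p = 0.00447 and 0.0336). CNNM4, a magnesium transporter, had 0.51 ± 0.12, MAP1LC3B, the LC3 protein of autophagosomes, had 0.47 ± 0.12, and KHDRBS3, an RNA-binding protein, had 1.39 ± 0.32 with at most 4.59 CPM in DOHH2. That 4.59 CPM lay in NEO2734 replicate 3, which holds OCILy10 genes, and without that library the KHDRBS3 difference was 1.10 (adjusted p = 0.375). ATF3, a stress-response factor, had 22.8, 185 and 91.8 CPM with NEO2734 in DOHH2, against 15.6, 81.4 and 54.1 CPM with OTX015, with a spread between depths wider than the difference (0.74 ± 0.23, adjusted p = 0.437).

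For 4 genes of the drug targets no difference was found on average over the lines, with intervals that rest on the spread between libraries. BRD2 had -0.03 ± 0.09 (95% interval -0.22 to 0.16) and BRD3 had -0.09 ± 0.13 (-0.37 to 0.19). CREBBP had 0.01 ± 0.11 (-0.22 to 0.24) and EP300 had -0.13 ± 0.09 (-0.32 to 0.06). Each of these intervals lies inside a 2-fold difference either way. By line, EP300 had -0.27 ± 0.13 in Toledo and 0.01 ± 0.13 in DOHH2. Its Toledo interval, -0.537 to -0.0013, did not include 0, and its edgeR adjusted p there was 0.886. HEXIM1, read as a marker of BET inhibition, had 111, 199 and 243 CPM with NEO2734 in DOHH2, against 83.3, 147 and 218 CPM with OTX015 and 33.4, 46.5 and 57 CPM with DMSO. In Toledo it had 468, 263 and 137 CPM with NEO2734, against 139, 279 and 235 CPM with OTX015 and 30.2 and 68.9 CPM with DMSO. All compound libraries were above all DMSO libraries of their line, and the compounds overlapped. The difference between them was 0.33 ± 0.15 (0.02 to 0.64, adjusted p = 0.615). CDKN1A, a p53 target that halts the cell cycle, had 0.45 ± 0.17 (adjusted p = 0.532).

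CIITA, IRF4 and BCL6 were read next among genes of B cell identity. CIITA, the switch for MHC class II genes, had 11.9, 20.2 and 44.8 CPM with NEO2734 in DOHH2, against 20.1, 33.5 and 25.2 CPM with OTX015, which overlapped, and 40, 44.7 and 45.8 CPM with NEO2734 in Toledo, against 122, 64.4 and 63.1 CPM with OTX015, which did not. Its difference was -0.58 ± 0.19 (adjusted p = 0.5). The 44.8 CPM lay in the library that holds OCILy10 genes, and without that library the difference was -0.78 (adjusted p = 0.24). IRF4, a factor of plasma cell and activated B cell programmes, had -0.06 ± 0.11 (-0.28 to 0.16) on average. BCL6, the factor that defines germinal centre cells, had 1.61 ± 0.78 (adjusted p = 0.671) from 0.12, 0 and 6.31 CPM with NEO2734 in DOHH2, against 0, 0.577 and 0 CPM with OTX015. Its level lay in that same library, and without it the difference was 0.20. NOTCH2 showed the same, with 2.76, 8.46 and 59.7 CPM with NEO2734 in DOHH2, against 1.22, 5.77 and 6.67 CPM with OTX015, and 1.04 ± 0.33 with that library and 0.37 without it. SERPINI1 had too few counts to be tested.

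**Figure D3:**
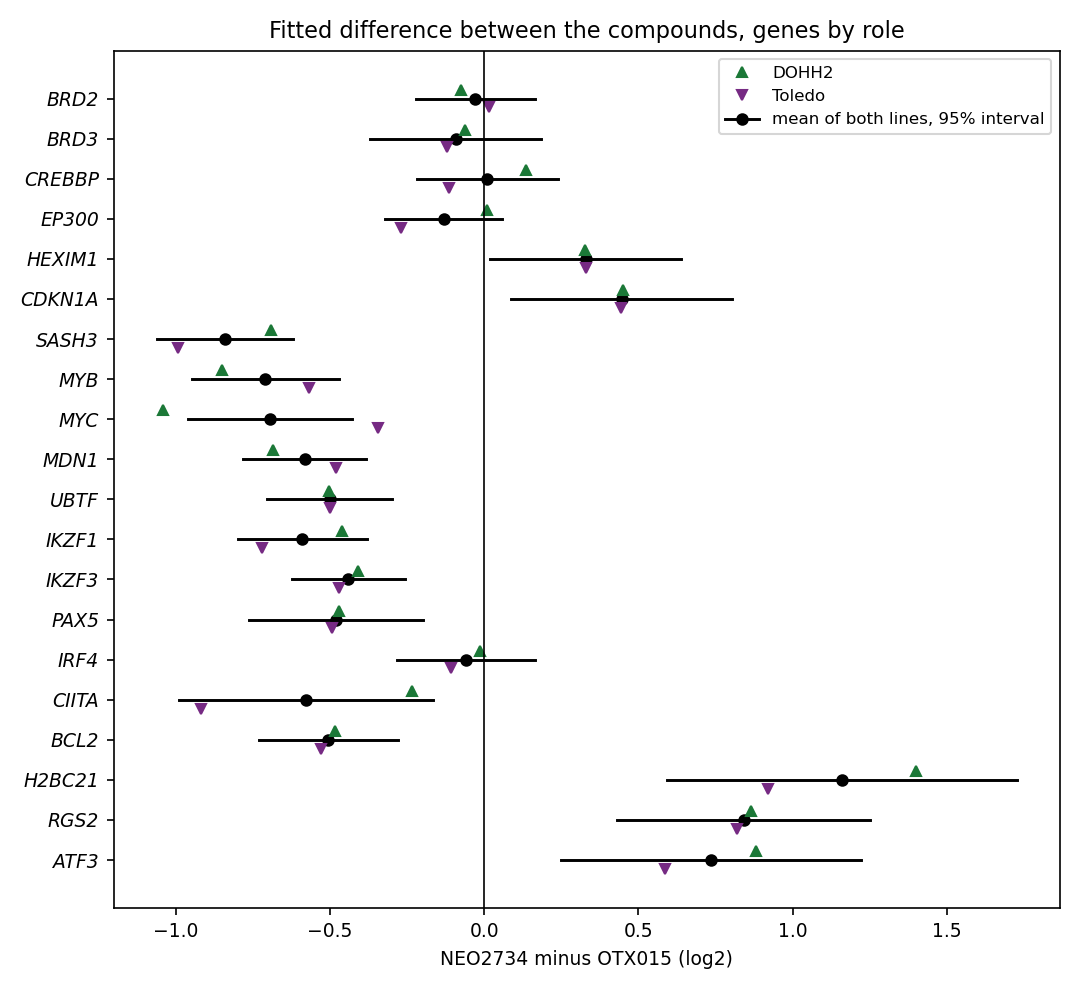
Fitted log2 difference between NEO2734 and OTX015 (x axis) for genes grouped by role, with the mean of both lines and its 95% interval in black, DOHH2 as upward and Toledo as downward triangles. The intervals of the bromodomain genes and IRF4 include 0, those of SASH3, MYB, MYC, MDN1, UBTF, IKZF1, IKZF3, PAX5, CIITA and BCL2 lie below 0 and those of HEXIM1, CDKN1A, H2BC21, RGS2 and ATF3 above it, without adjustment for the number of genes.

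Gene lists, written with earlier results of these data known, are described by counts at an unadjusted p under 0.05 and by medians, beside 3.54% higher, 4.12% lower and a median of 0.01 over all genes. No member of any list passed the adjusted test. Of 34 B cell transcription factors, 10 were lower and 0 higher (median -0.23), and without DOHH2 NEO2734 replicate 3 there were 13 and 0. Of 8 pan-B cell markers, 4 were lower (median -0.39), among them PAX5, BLK and EBF1 (-0.41 ± 0.17). Of 22 germinal centre genes, 4 were lower (median -0.19), among them BCL7A (-0.41 ± 0.12) and GCSAM (-0.39 ± 0.16). The B cell receptor pathway had 5 lower and 1 higher of 38 (9 and 0 without that library), with the phosphatase gene INPP5D at -0.42 ± 0.11 and the adaptor gene LAT2 at -0.53 ± 0.14. The plasma cell list had 3 lower of 19 and MHC class II presentation 3 lower of 17, with HLA-DMB, which loads peptides, at -0.67 ± 0.25. Without that library 5 pan-B cell markers, 4 germinal centre genes, 4 plasma cell genes and 3 MHC class II genes were lower.

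Few interferon genes were past that level. Of 59 interferon-stimulated genes, 2 were lower and 1 higher, with a median of -0.17. Their median against DMSO was -0.81 with NEO2734 and -0.63 with OTX015. The guanylate-binding protein gene GBP2, the higher one, had at most 8.46 CPM on average in a group. It was below 0 without Toledo NEO2734 replicate 3 or Toledo OTX015 replicate 1. With NEO2734 in DOHH2 it had 1.44, 8.46 and 15.5 CPM, the last in replicate 3, which holds OCILy10 genes. GBP2 averaged 88.9 CPM with NEO2734 in OCILy10, and it was not among the genes tested without that DOHH2 library. Interferon receptors, STATs and IRFs had 4 lower and 1 higher of 24, with IRF2 at -0.39 ± 0.11 and STAT6 at -0.39 ± 0.12, and MHC class I presentation had 1 lower of 17 (TAP2, -0.29 ± 0.13). Without DOHH2 NEO2734 replicate 3, the interferon-stimulated genes had 2 lower and 0 higher, the receptor list 5 lower and 1 higher and MHC class I presentation 1 lower.

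On the upward side, 3 of 14 histone genes were higher and 0 lower (median 0.33, and 0.17 without DOHH2 NEO2734 replicate 3): H2BC21, H2BC5 (0.68 ± 0.25) and H3-3B (0.29 ± 0.09). Immediate early genes had 4 higher of 32 (median 0.23), with RGS2, ATF3, PPP1R15A (0.33 ± 0.12) and FOS (0.81 ± 0.38). The ER stress list had 4 higher of 30 (median 0.03), cell cycle and replication 5 higher of 51 (median 0.03), p53 targets 2 higher of 26 (median 0.17) and autophagy and lysosome 3 higher of 38 (median 0.11). Ribosomal protein genes had 5 higher and 0 lower of 77, with a median of 0.16. Of the 77 values 70 were above 0, beside 52.6% of all genes. The ribosomal protein genes had 3 higher (median 0.10) and the immediate early genes 4 (median 0.14) without DOHH2 NEO2734 replicate 3. The ER stress list then had 4 higher, cell cycle 3, autophagy 3, and p53 targets 3 higher and 1 lower. Histone and ribosomal protein genes have near-identical copies that can share reads, so their single values are uncertain. Ribosomal protein levels also differed between depths. With NEO2734 in DOHH2, RPL10A was at 1130 CPM in the deep library and at 200 and 333 CPM in the shallow ones. RPS7 was at 808 CPM, against 96.9 and 188 CPM. The 15 mitochondrially encoded genes, a sign of RNA quality or depth, had a median of 0.14 with 15 values above 0 and none past an unadjusted p of 0.05. Mitochondrial counts made up 5.31% to 11.93% of the libraries in the fit, and their part in these medians was not tested.

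The other lists had at most 3 members past that level in either direction. Elongation and bromodomain factors had 3 higher and 0 lower of 31, and 1 higher and 2 lower without DOHH2 NEO2734 replicate 3. Of the 31 values 20 were below 0 (median -0.07), beside 47.4% of all genes. Glycolysis had 3 higher and 2 lower of 27 (HK2, which phosphorylates glucose, at -0.59 ± 0.13), and BCL2 family genes 1 higher and 2 lower of 15. BET response markers had 2 and 2 of 10, NF-kB targets 1 and 1 of 35, cholesterol synthesis 1 and 1 of 24 and heat shock 1 and 1 of 18. Activated B cell-like genes had 2 higher and 1 lower of 24 (median 0.01). Without the library that holds transcripts of OCILy10, an activated-type line, they had 0 higher and 3 lower (median -0.10). Notch pathway genes had 1 and 3 of 19, costimulatory molecules 1 and 3 of 22, chemokines and cytokines 0 and 1 of 29, and the Toll-like receptor pathway 1 and 0 of 22. The counts of higher and lower genes without DOHH2 NEO2734 replicate 3 were 1 and 3 for BET response markers, 2 and 3 for NF-kB targets, 2 and 2 for cholesterol synthesis and for glycolysis, 0 and 1 for heat shock, 0 and 3 for the Notch pathway, 0 and 2 for chemokines and 1 and 2 for the Toll-like receptor pathway. Of 13 T cell markers 1 had enough counts to be tested, and of 12 monocyte and macrophage markers 0.

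**Figure D4:**
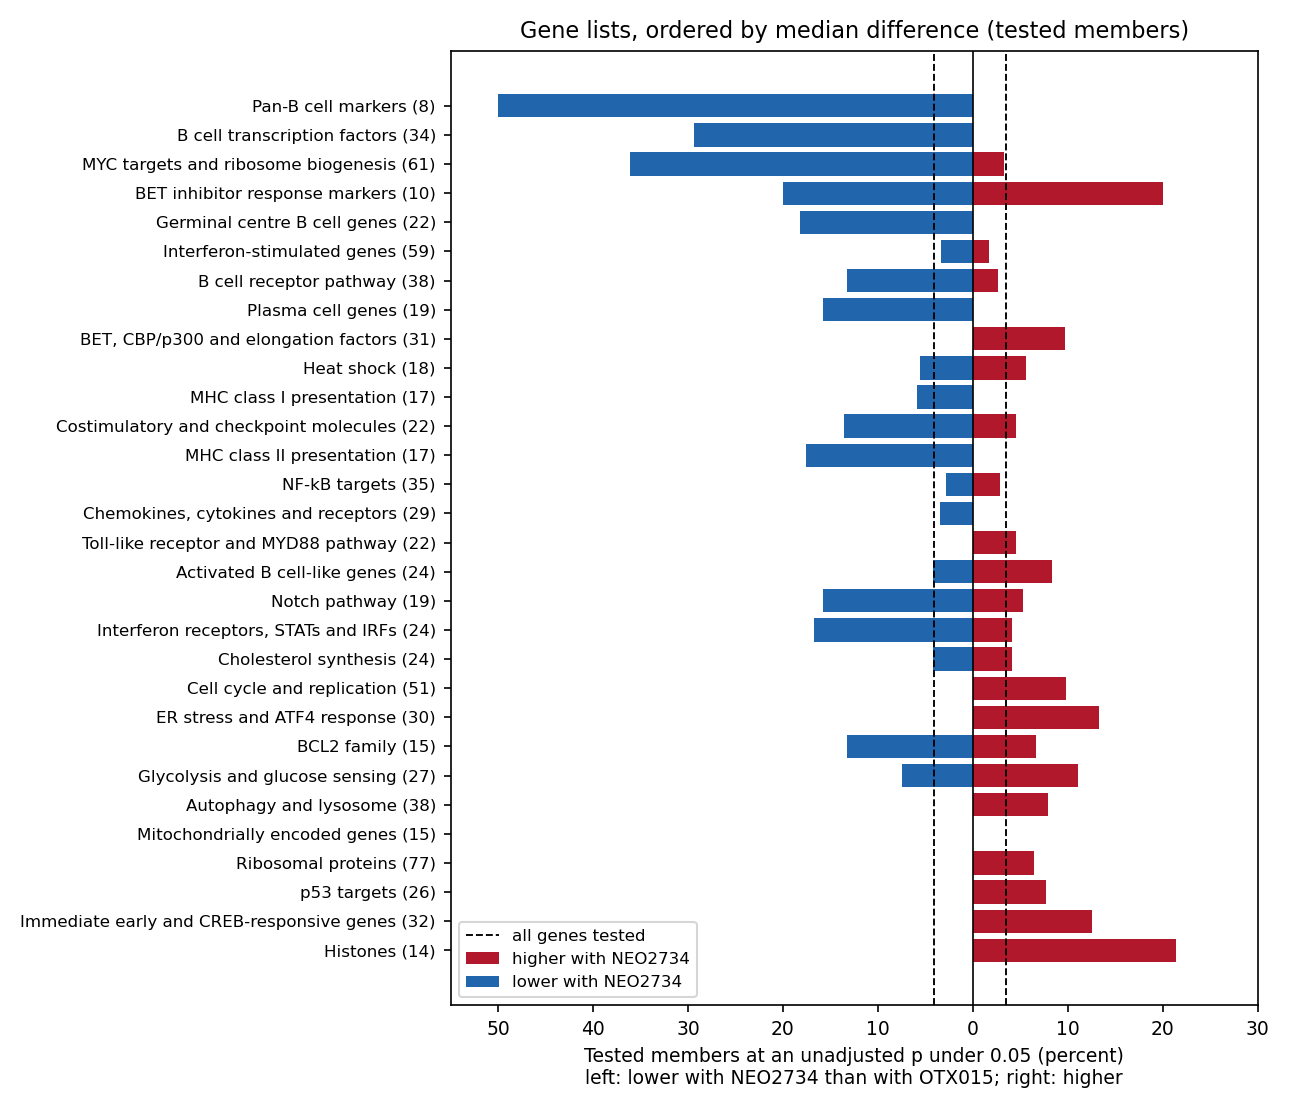
Share of the tested members of each list (x axis, percent; number tested in brackets) at an unadjusted p under 0.05, lower with NEO2734 than with OTX015 to the left and higher to the right; dashed lines mark the shares of all genes tested, 4.12% and 3.54%. Pan-B cell markers (50% of 8 genes) reach furthest left of all. Among lists of over 30 genes, MYC targets and ribosome biogenesis (36.1%) and B cell transcription factors (29.4%) reach furthest left. Histones (21.4% of 14 genes) reach furthest right of all.

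Genes that OTX015 moves were then taken from lines that share no library with this comparison. In OCILy10 and TMD8, OTX015 against DMSO called 879 lower genes (7.43%) and 650 higher ones (5.5%) of 11824 tested. In DOHH2 and Toledo, 729 of the lower genes were tested, and 74.9% of them had a value below 0 between NEO2734 and OTX015, beside 47.4% of all genes, with a median of -0.14 (-0.18 in DOHH2, -0.13 in Toledo). Of these, 18.5% were lower at an unadjusted p under 0.05 and 1.51% higher, beside 4.12% and 3.54% of all genes. Of the 610 tested among the higher genes, 79.5% had a value above 0, beside 52.6% of all genes, with a median of 0.15. At that same level of p, 14.8% of the 610 were higher and 0.82% lower. Without DOHH2 NEO2734 replicate 3 the medians were -0.17 and 0.12. The medians are small beside a 2-fold difference, and 25.1% of the lower and 20.5% of the higher genes had a value on the other side of 0.

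Against DMSO within DOHH2 and Toledo, 2664 genes (23.3%) were called with NEO2734 and 1236 (10.8%) with OTX015, and 2585 (22.3%) and 1466 (12.7%) without DOHH2 NEO2734 replicate 3. Those counts share the DMSO libraries and are given side by side, with no test of their difference.

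The lines were set against each other next. The log2 differences in DOHH2 and Toledo had a correlation over genes of 0.01 (11410 genes) and of 0.15 over the 5877 genes with at least 20 CPM in each compound group. These points share libraries and are not replicates. Of the 874 genes at an unadjusted p under 0.05 for the mean, 841 had the same sign in both lines, which the choice by the mean favours. No gene passed the test of DOHH2 minus Toledo, with 347 at an unadjusted p under 0.05 (3.04%). The lowest p belonged to PSD3, an exchange factor of ARF GTPases, with 68.9, 95.6 and 72.3 CPM with NEO2734 in DOHH2, against 102, 133 and 136 CPM with OTX015, and 24.9, 28.1 and 29.3 CPM with NEO2734 in Toledo, against 24.4, 16.9 and 15.1 CPM with OTX015. The groups did not overlap in either line and lay in opposite order (-1.16 ± 0.24, unadjusted p = 0.000157). MLLT3, a reader of histone acylation in the super elongation complex, was at 6.11, 4.42 and 5.39 CPM with NEO2734 in Toledo, against 1.83, 1.3 and 1.68 CPM with OTX015, and at -0.07 ± 0.18 in DOHH2. HSF4 (4.26 ± 1.09), IQCN (2.61 ± 0.71) and NOL3 (2.55 ± 0.74) made up the 5 lowest p, and none passed. In Toledo HSF4 averaged 0.157 CPM with NEO2734 and 1.01 CPM with OTX015, and NOL3 0.223 and 1.34 CPM, so both rest on few counts. The highest IQCN value in DOHH2, 15.5 CPM, lay in NEO2734 replicate 3, against 8.29 and 6.51 CPM in replicates 1 and 2.

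**Figure D5:**
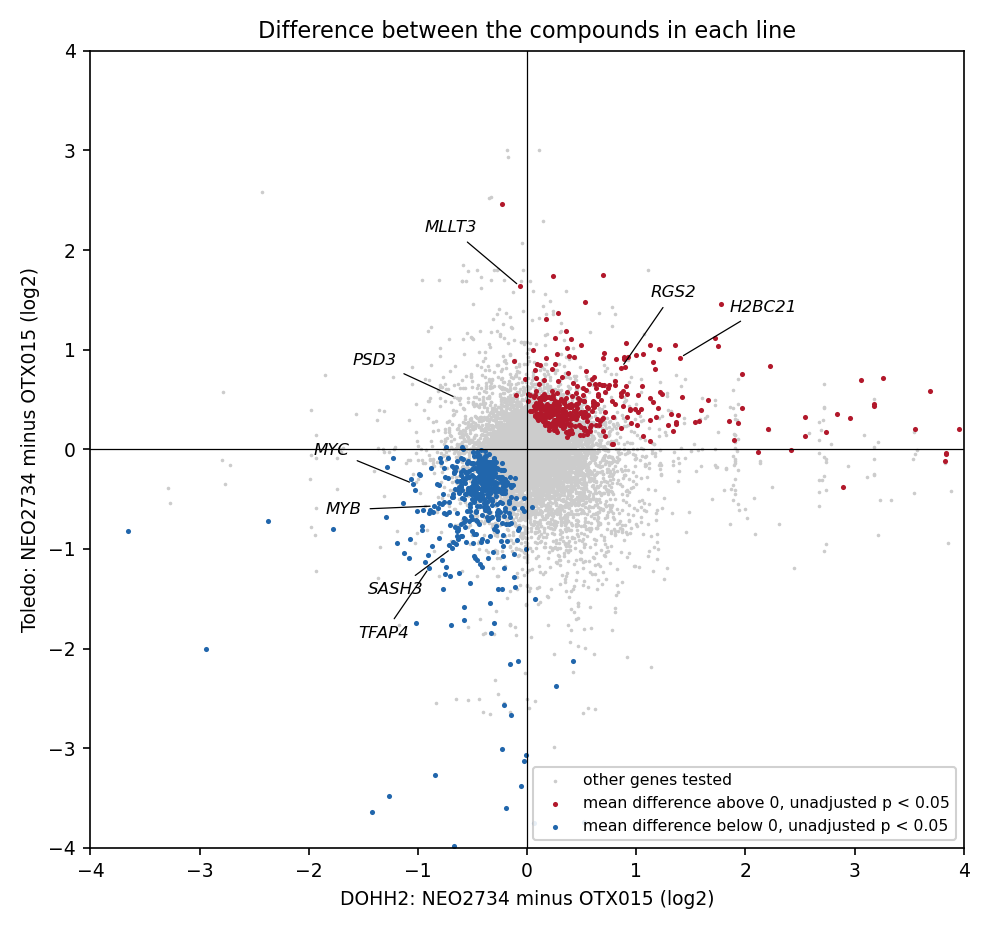
NEO2734 minus OTX015 (log2) in DOHH2 (x axis) against Toledo (y axis) for each gene tested, coloured where the mean had an unadjusted p under 0.05; 23 genes lie beyond the axes, which end at 4. SASH3, MYB and MYC are below 0 in both lines, MLLT3 stands out in Toledo alone and PSD3 lies in opposite directions.

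The same comparison in OCILy10 and TMD8 called 0 of 13051 genes, with 431 higher (3.3%) and 294 lower (2.25%) at an unadjusted p under 0.05. The difference between the pairs of lines, DOHH2 and Toledo minus OCILy10 and TMD8, called 0 genes, with 276 at an unadjusted p under 0.05 (2.11%). Values for the leading genes in OCILy10 and TMD8 were -0.66 ± 0.18 for SASH3, -0.65 ± 0.21 for MYB, -0.62 ± 0.13 for IKZF1, -0.64 ± 0.25 for MYC and -0.25 ± 0.14 for MDN1. Over the 5877 genes with at least 20 CPM, the mean differences of the pairs of lines had a correlation of 0.47, and of 0.25 over all 11410 genes in both fits. MACC1, a regulator of the MET receptor gene, had the lowest p of the difference between the pairs (-2.56 ± 0.46, adjusted p = 0.0951), and it passed without DOHH2 NEO2734 replicate 3 (-2.70, adjusted p = 0.0118). It stood at 1.41 ± 0.97 CPM with NEO2734 in TMD8, against 0.0436 ± 0.0755 CPM with OTX015, and at 59.6 ± 22.8 CPM with NEO2734 in OCILy10, against 68.1 ± 21.4 CPM with OTX015, so it rests on low counts in TMD8. SLA, SIRPA, PARM1 and MID1IP1 came next in p and did not pass. SLA, an adaptor of lymphocyte receptors, averaged 7.90 ± 12.9 CPM with NEO2734 in DOHH2, against 0.185 ± 0.320 CPM with OTX015, beside 192 ± 65.8 CPM with NEO2734 in OCILy10. The spread in DOHH2 exceeds the mean, and with DOHH2 NEO2734 replicate 2 left out, which keeps replicate 3, the test between the pairs of lines called 24 genes.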

How the data were processed

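Per the labels' protocols, Trizol was used for RNA extraction and an Illumina TruSeq RNA kit for the libraries. Text shared by all samples names other compounds and a longer treatment, so each sample's own label was used. The authors deposited raw counts per gene, 15808 genes in 39 libraries, made with STAR on hg38 and edgeR per the submitters' processing notes. The sources used here do not give versions, annotation, counter or strand setting, so a gene and its antisense partner cannot be told apart. All 39 columns matched a sample. A second deposited table was not used: 38 of its columns equal these, and OCILy10 CB103 replicate 1, which enters only the alternative with all 38 libraries, differs. Symbols came from unversioned gene IDs (14179 matched) and coordinates from GENCODE release 29.

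Deposited counts of 17 libraries (DOHH2 and Toledo with NEO2734, OTX015 or DMSO, without Toledo DMSO replicate 2) were fitted in edgeR 4.0.16 (R 4.3.3). The fit used TMM scaling, filterByExpr, glmQLFit and glmQLFTest, with 6 groups and depth within line (over or under 5000000 counts) as terms and 9 residual degrees of freedom. Calls had a Benjamini-Hochberg adjusted p below 0.05. A second fit of 35 libraries held all 4 lines (13051 genes, 19 residual degrees of freedom). Levels are CPM on TMM-scaled library sizes. Fitted differences carry a prior count of 0.125, and the SE is the difference over the square root of F. The script was tested on simulated data. The alternatives were other scalings, filters, library sets and depth terms, DESeq2 1.42.0 and limma-voom (limma 3.58.1), and each of 12 libraries left out.

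The genes named were the called one, the 5 lowest p, the 5 lowest p of each difference between lines, the genes read everywhere and, since hardly any gene was called, the 20 lowest p with at least 5 CPM in a compound group, the 12 lowest among higher genes and the lowest of each list. These last 3 sets were chosen after the values were seen, and some genes are not reported here. The comparison and the 32 gene lists were chosen with earlier results of these data known. Same-numbered libraries were not treated as pairs: in Toledo the deep library is replicate 3 with NEO2734 and replicate 1 with OTX015. In DOHH2 it is replicate 1 with both. CPM of libraries with few counts are imprecise, and the p-values cover the spread between libraries only.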

Additional observations from a re-analysis of the deposited data

How the results depend on the processing

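The count of genes called for the mean of DOHH2 and Toledo, 1 in the fit reported, was 4 with upper quartile scaling, 4 with library totals, 5 with all 38 libraries and 36 with DESeq2. It was 0 with no depth term, 0 with the replicate number as a block in place of the depth term, 0 in the shallow libraries alone and 0 in the deep ones alone, where 2 residual degrees of freedom remain. Leaving out 1 library at a time gave 0 to 12: 12 without DOHH2 NEO2734 replicate 2, 5 without DOHH2 OTX015 replicate 3, 4 without Toledo NEO2734 replicate 3 and 0 without Toledo OTX015 replicate 1. Of the 12, 6 were lower and 6 higher (GLUL, YBX3, SLA, AMOTL1, NOTCH2 and GTSF1). That fit keeps DOHH2 NEO2734 replicate 3, which holds OCILy10 genes. Genes at an unadjusted p under 0.05 numbered 874 in the fit reported, 248 with no depth term, 357 with the replicate block and 535 in the shallow libraries. In DOHH2 DESeq2 called 21 genes and the left-out libraries gave 0 to 9, with 9 without NEO2734 replicate 2, all of them higher. In Toledo upper quartile scaling and DESeq2 called 1 gene each, SASH3. The difference between the pairs of lines gave 0 to 24 with a library left out. It gave 24 without DOHH2 NEO2734 replicate 2 (23 higher and 1 lower) and 1 without replicate 3. The cause of these changes was not tested. DOHH2 minus Toledo called 0 genes under each alternative run. Same-numbered libraries of NEO2734 and OTX015 had correlations of deviations of 0.929, 0.693 and 0.461 in DOHH2 and -0.472, 0.502 and -0.787 in Toledo. The highest with another number were -0.756, 0.614 and 0.3 in DOHH2 and 0.568, 0.686 and 0.773 in Toledo. With depth also fitted, same-numbered libraries had -0.365, 0.202 and -0.048 in DOHH2 and 0.56, -0.036 and -0.208 in Toledo. In DOHH2 replicate 1 is the deep library with both compounds, so its number and its depth cannot be told apart. These values do not settle whether same-numbered libraries are paired, and the block is given here as a number only.

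Of the log2 differences of named genes, some changed sign. In the shallow libraries PSD3 was at 0.033 and BRD3 at 0.057. CREBBP was at -0.001 with DESeq2, -0.004 with limma-voom, -0.02 with all 38 libraries and -0.347 in the deep libraries, where BCL6 was at -0.301. With a library left out, the ranges were -0.149 to 0.051 for PSD3, -0.091 to 0.016 for BRD2, -0.198 to 0.002 for BRD3, -0.05 to 0.114 for CREBBP, -0.139 to 0.012 for IRF4 and -0.569 to 1.696 for GBP2. With 11 of the 17 libraries at 1000281 to 2427565 counts, genes of low CPM rest on few counts.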
